A study of Homo sapiens with 8 samples.

Results

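The Notch genes described here were 10 members chosen by name: the receptors NOTCH1, NOTCH2 and NOTCH3, the ligands JAG1, JAG2 and DLL1, and the transcriptional targets HES1, HES4, HEY1 and HEY2. All 10 were found among the 19475 entries of the mRNA table, and peaks named for 8 of them formed 12 of the 22001 m6A regions of the series. HCT116, a human colorectal carcinoma cell line, was treated with Fusobacterium nucleatum or with PBS (Control), and the methods of the study give 2 h of exposure at a multiplicity of infection of 100:1. N6-methyladenosine (m6A), a methylated form of adenosine within mRNA, was mapped in fragmented poly(A) RNA by immunoprecipitation with an m6A antibody (IP), with unselected fragments as input. There were 2 libraries of each kind for each treatment (labelled Control and FUSO, the latter called F. nucleatum here). The 4 peak lists each came from 1 IP and the input of the same replicate, and expression came from the 4 inputs. Both treatments used the same cell line, and no other bacterium was included in these libraries.

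Notch receptors are membrane proteins that a ligand on a neighbouring cell activates. Binding of a Jagged or Delta-like ligand exposes the receptor to cleavage by an ADAM protease and then by γ-secretase, and the freed intracellular domain enters the nucleus, where it joins RBPJ and a Mastermind coactivator and switches on genes of the HES and HEY families. These encode basic helix-loop-helix repressors. In the intestinal epithelium Notch signaling maintains progenitors and represses ATOH1, the factor that starts secretory differentiation, and HES1 carries out this repression.

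FPKM (fragments scaled by transcript length and by the total of mapped fragments) were deposited in place of counts, so the absolute depth was unknown. Ratios among the lowest values put the input depth of the other three libraries between 0.916 and 1.24 times that of Control 1, an estimate that rests on the few genes sharing the most frequent ratio. Of 9 colorectal epithelial markers 7 reached a mean of 1 FPKM or more, whereas CEACAM5 was listed at 0 in all libraries and VIL1 at 0 in all but F. nucleatum 2. The summed epithelial level was 4800 to 5176 FPKM in Control and 4357 to 4726 FPKM in F. nucleatum libraries. KRT8, KRT18 and KRT19 made up nearly all of it, with means of 2152, 1231 and 1187 FPKM. KRT8, KRT18 and CDX2 were lower in both F. nucleatum libraries than in both Control libraries, whereas EPCAM and CDH1 were higher. The summed level was 3.78 to 4.58 and 5.12 to 5.78 FPKM for 5 fibroblast markers (COL1A1 made up nearly all of it, with COL1A2, DCN and LUM listed at 0), 7.19 to 9.45 and 9.12 to 9.35 FPKM for 5 leukocyte markers (mostly CD68, with CD3E listed at 0), and at most 0.134 FPKM for 3 endothelial markers, where CDH5 was listed at 0. None of these markers was called as changed, and their part in the results was not tested.

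Sequences from the m6A regions of these mRNAs are shown first, since the peaks of NOTCH1, JAG2, HES1 and HES4 below are described by where they lie. Each line gives 29 bases of the mRNA strand from GRCh37 (hg19), 5′ to 3′, around a match to the m6A consensus DRACH (D is any base but C, R a purine, H any base but G), with the 5 bases of the match in capitals. The first 6 were picked among the matches that begin with GGAC, as the match nearest the middle of the part of a region that all 4 lists covered. Other DRACH matches can lie nearer.
NOTCH1 before the stop codon, chr9:139390693-139390721, minus strand: ctcctcgcctgtGGACAacacccccagcc
NOTCH1 in the 3′UTR, chr9:139389657-139389685, minus strand: catgagatgtgtGGACTgtggcacttgcc
NOTCH2, chr1:120457590-120457618, minus strand: ttcttgcagcttGGACTgcattttaagcc
JAG1, chr20:10620200-10620228, minus strand: aacacccaaactGGACAaacaaacaggac
JAG2, chr14:105608957-105608985, minus strand: atgccgtctgccGGACCcggaggccgagg
HES1, chr3:193855980-193856008, plus strand: ctcgcttacggcGGACTccatgtggaggc
The next 4 are matches that were not covered in all lists and are taken up with their regions. A match is a description of the sequence, as the lists give no single bases.
NOTCH1 gap, chr9:139391215-139391243, minus strand: cggcatggtgccGAACCaatacaaccctc
NOTCH1 upstream end, chr9:139391896-139391924, minus strand: cacggatcatatGGACCgcctgccgcgcg
JAG2 upstream end, chr14:105609419-105609447, minus strand: tgtgcgtgtggtGGACAcgcaagcgcagg
HES4 upstream end, chr1:934638-934666, minus strand: ctgcgccagctgGGACCctcccgccgccc

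The first comparison asked whether the mRNA of the Notch genes differed between Control and F. nucleatum-treated cells. Of the 10 genes, 7 reached the mean of 1 FPKM needed for the test and 3 (DLL1, HEY1 and HEY2) did not. None of the 7 passed a limma adjusted p under 0.05, which 0.803% of the 11088 genes tested did (0.667% higher and 0.135% lower in F. nucleatum). At an unadjusted p under 0.05, JAG1, HES1 and HES4 were higher in F. nucleatum libraries and none was lower, against 7.04% of all genes higher and 6.45% lower. Log2 fold changes below are F. nucleatum minus Control on log2(FPKM + 1), which understates the change of low genes. Their median was 0.13 in the 7 genes and 0.01 in all genes tested. In bulk RNA a change in the number of expressing cells and a change in RNA per cell cannot be told apart.

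Among the receptors, NOTCH1 (chromosome 9, 139388885 to 139440500) had 6.10 and 5.94 FPKM in the Control libraries against 5.44 and 5.02 FPKM under F. nucleatum. Both F. nucleatum values were below both Control values, which held for 21.1% of all genes tested. NOTCH1 thus had a log2 fold change of -0.17 with an SE of 0.08, a 95% confidence interval from -0.38 to 0.03 and a limma adjusted p of 0.421. NOTCH2 (chromosome 1, 120454176 to 120612276) had 5.60 and 5.83 FPKM in the Control libraries against 5.60 and 5.08 FPKM under F. nucleatum, and the groups overlapped. Its log2 fold change was -0.08 (SE 0.09, limma adjusted p 0.684). NOTCH2 has near-identical partial copies (NOTCH2NL), so its FPKM may share fragments with them. NOTCH3 (chromosome 19, 15269849 to 15311806) had 2.71 and 2.97 FPKM in the Control libraries against 2.95 and 3.45 FPKM under F. nucleatum, again with overlap, and its log2 fold change was 0.13 (SE 0.10, limma adjusted p 0.605). The intervals of the receptors stayed between -0.38 and 0.38.

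The ligands differed in direction, and none passed after adjustment. JAG1, the Jagged ligand mutated in Alagille syndrome (chromosome 20, 10618332 to 10654647), had 3.87 and 2.88 FPKM in the Control libraries against 4.93 and 4.67 FPKM under F. nucleatum. Both libraries under F. nucleatum exceeded both Control libraries, which held for 26.1% of all genes tested. The ratio of the means of JAG1 was 1.42 and its log2 fold change 0.42 with an SE of 0.13 (95% confidence interval from 0.09 to 0.74, limma p 0.0200 before and 0.289 after adjustment). Without Control 2 the log2 fold change of JAG1 was 0.25 (limma p 0.0581 before adjustment), and without Control 1 it was 0.58. JAG2 (chromosome 14, 105607332 to 105635113) had 17.4 and 28.4 FPKM in the Control libraries against 22.0 and 13.7 FPKM under F. nucleatum. The replicates of JAG2 differed by more than the group means of 22.9 ± 7.83 and 17.8 ± 5.87 FPKM (SD, n = 2), and no other tested member varied as much between replicates. JAG2 thus had a log2 fold change of -0.34 with an SE of 0.29, a 95% confidence interval from -1.06 to 0.38 and a limma adjusted p of 0.625, and without Control 2 the estimate was 0.00059. DLL1, a Delta-like ligand (chromosome 6, 170591294 to 170600166), had 1.14 and 0.779 FPKM in the Control libraries against 0.843 and 1.10 FPKM under F. nucleatum, with a mean over all libraries of 0.966 FPKM, just below the limit for the test.

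Of the 4 targets, HES1, HES4 and HEY1 were higher in both F. nucleatum libraries than in both Control libraries, without a call. This held for 26.1% of all genes tested, a share that does not cover HEY1, which was below the limit for the test. Among the 7 tested members, 3 were above, 1 was below and 3 overlapped. HES1, the main Notch target in the intestine (chromosome 3, 193853937 to 193856521), had 5.87 and 4.43 FPKM in the Control libraries against 6.55 and 7.12 FPKM under F. nucleatum, with no overlap. This gave a log2 fold change of 0.36 with an SE of 0.13 (95% confidence interval from 0.03 to 0.68, limma p 0.0360 before and 0.346 after adjustment). Without Control 2 the log2 fold change of HES1 was 0.19 (limma p 0.116 before adjustment), and without Control 1 it was 0.53. HES4, a close relative of HES1 (chromosome 1, 934344 to 935477), had 58.6 and 58.4 FPKM in the Control libraries against 70.6 and 69.4 FPKM under F. nucleatum. The replicates of HES4 were close together, at 58.5 ± 0.167 and 69.99 ± 0.861 FPKM (SD, n = 2), and the groups did not overlap. HES4 thus had a log2 fold change of 0.25 with an SE of 0.05 (95% confidence interval from 0.12 to 0.39) and the lowest p of the 7 genes (limma p 0.00371 before and 0.178 after adjustment).

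HEY1 (chromosome 8, 80676245 to 80680002) had 0.195 and 0.0788 FPKM in the Control libraries against 0.377 and 0.308 FPKM under F. nucleatum, so both F. nucleatum values were above both Control values at a very low level. The ratio of the means was 2.51, and in a fit without a filter on low values the limma p of HEY1 was 0.0165 before and 0.324 after adjustment. HEY2 (chromosome 6, 126070778 to 126082415) had values of 0 and 0.0304 FPKM in the Control libraries against 0 and 0.0547 FPKM under F. nucleatum. HEY1 and HEY2 are known from the development of heart and vessels, and both stayed far below 1 FPKM in these cells.

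**Figure D1:**
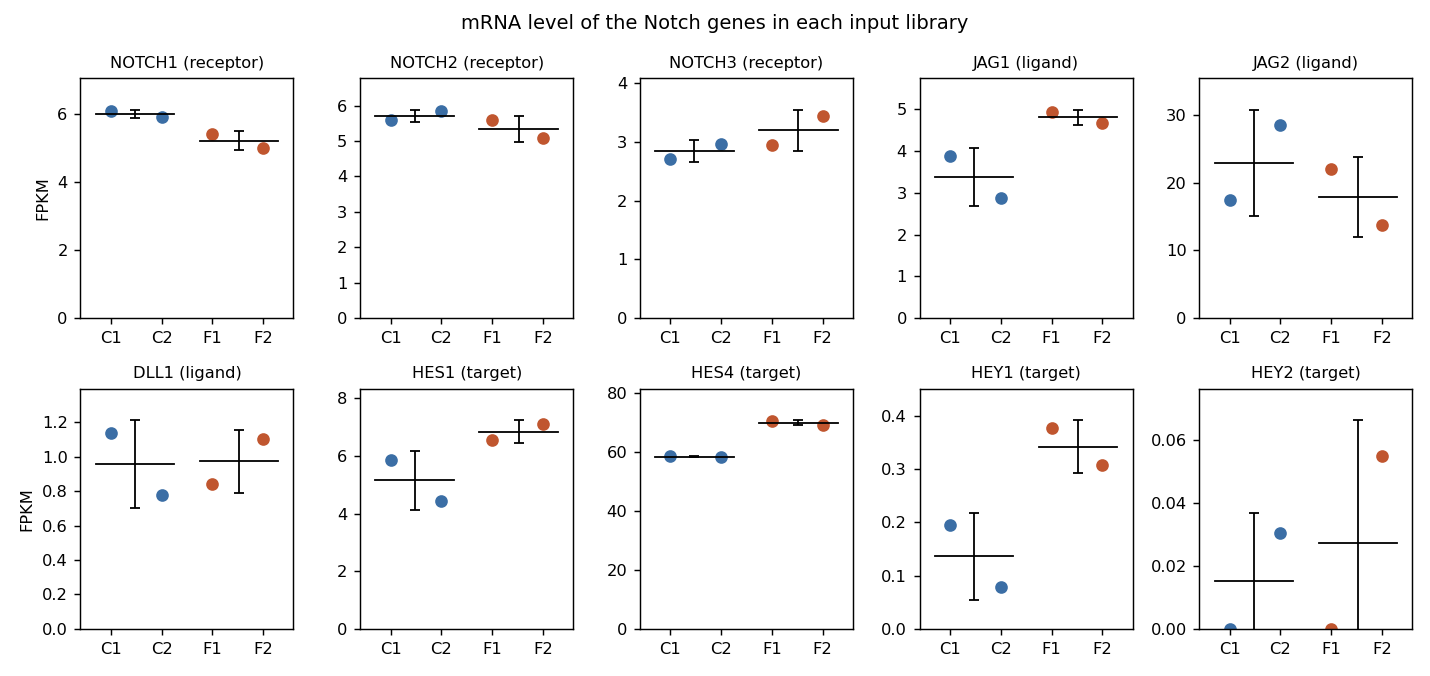
FPKM (vertical axes, from 0) of each of the 10 Notch genes in the input libraries Control 1 and 2 (C1, C2, blue) and F. nucleatum 1 and 2 (F1, F2, red), with lines at the group means and bars of 1 SD (n = 2). HES4 is at 58.4 to 58.6 FPKM in Control and at 69.4 to 70.6 FPKM in F. nucleatum libraries, whereas the libraries of JAG2 spread from 13.7 to 28.4 FPKM with overlap between the groups.

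Within the cells the 10 genes covered a wide range of levels, which FPKM make comparable by length. HES4 was the highest, with a mean of 64.2 FPKM over the 4 libraries, followed by JAG2 with 20.4 FPKM. HES1, NOTCH1 and NOTCH2 followed at means of 5.99, 5.63 and 5.53 FPKM and overlapped with each other, as did JAG1 and NOTCH3 at 4.09 and 3.02 FPKM. HES1 also overlapped with JAG1, at 4.43 FPKM in Control 2 against 4.93 FPKM for JAG1 in F. nucleatum 1. DLL1 (0.966 FPKM), HEY1 (0.240 FPKM) and HEY2 (0.0213 FPKM) came last without overlap between neighbours.

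Genes differ in GC content, and libraries can differ in how well they recover GC-rich fragments, so the fit was repeated after correcting each library for the GC content of genes. HES4, whose mRNA has a GC content of 73.8%, then had a log2 fold change of 0.33 (95% confidence interval 0.18 to 0.49) and JAG1 (49.6% GC) one of 0.39 (0.06 to 0.73), with limma p of 0.00291 and 0.0296 before and 0.161 and 0.309 after adjustment. For HES1 (49.97% GC) the interval then reached below 0, from -0.01 to 0.68 (unadjusted limma p 0.0524). The sign of the 7 log2 fold changes did not change.

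**Figure D2:**
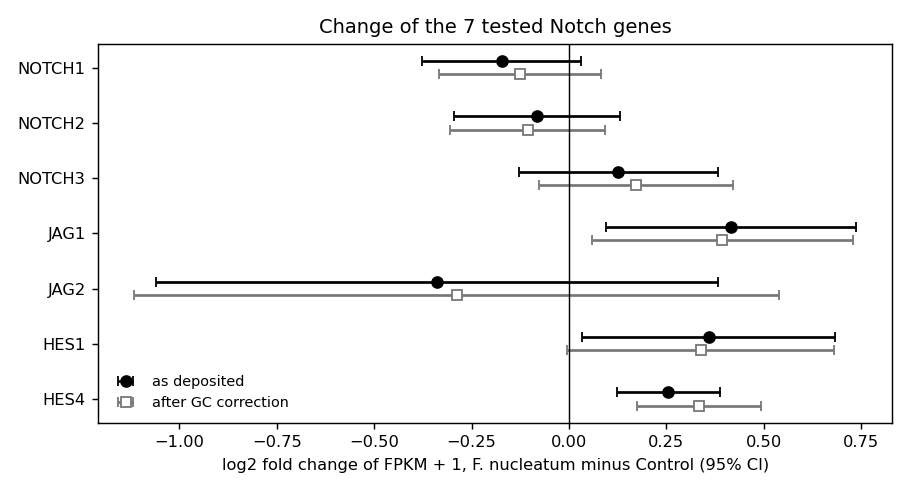
Log2 fold changes of FPKM + 1 (horizontal axis, F. nucleatum minus Control) of the 7 tested genes with 95% confidence intervals from limma, as deposited (black) and after GC correction (open squares). The intervals of JAG1 and HES4 lie above 0 in both fits and that of HES1 only as deposited, and none of the 7 passes after adjustment over all genes.

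The starts of HES1, HES4 and HEY2 carried the textbook binding sequence of RBPJ, GTGGGAA, and the start of HEY1 was not searched. It was searched on both strands in RefSeq promoters (GRCh38.p14, 250 bases before to 50 after the start), which were at hand for 8 of the 10 genes (all but DLL1 and HEY1), and was found in these 3 of the 8, against 6.25% of all 35116 promoters. Relative to the start it lay at position -85 in HES1, at -77 in HES4, and at -213 (on the opposite strand) and -4 in HEY2. Other sequences were searched in the same way. The shorter TGGGAA was found in the same 3 of the 8 genes, against 24.03% of all promoters. CACNAG (N is any base) was found in 4 of the 8 (NOTCH1, NOTCH2, NOTCH3 and HES1), against 38.03% of all promoters. HES1, HES4 and HEY2 had been chosen as transcriptional targets of Notch, so the GTGGGAA share does not come from a neutral choice of genes. A match describes the sequence alone, and binding was not measured here. JAG1, whose mRNA was higher in both F. nucleatum libraries, had no GTGGGAA, and a link between a match and the mRNA level was not tested. The sites of HES1 and HES4 are printed with the match in capitals, and those of HEY2, which was far below 1 FPKM, are left out.
HES1, chr3:194136052-194136080, plus strand: tgaaagttactGTGGGAAagaaagtttgg
HES4, chr1:1000157-1000185, minus strand: ctggggcgagtGTGGGAAagaatgcggag

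Next, m6A peaks of the Notch genes were counted. Control 1 held 8, Control 2 held 12 and each F. nucleatum list held 10 peaks. The mean was 10 peaks in both groups, with an SD of 2.83 in Control and 0 in F. nucleatum (n = 2, exact permutation p of 1). The peaks covered 5599 and 6504 bases in Control and 5781 and 5065 bases in F. nucleatum lists (exact permutation p of 0.667). With 2 lists against 2 this two-sided test cannot go below 0.333.

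Peaks that shared at least 1 exon base on the same strand were joined into regions. Of the 12 regions, 7 had a peak in all 4 lists, namely 2 in NOTCH1 and 1 each in NOTCH2, JAG1, JAG2, HES1 and HES4. None was found in both lists of a treatment and in neither list of the other, which held for 5.02% of all regions (2.64% in Control and 2.38% in F. nucleatum). The 5 remaining regions were weak peaks present in 1 to 3 lists. DLL1 and HEY2 had no peak. Among 2078 genes expressed within 2-fold of DLL1, 70.5% had a peak in at least 1 list, and the share was 26.7% of 1267 genes around the level of HEY1 and 0.778% of 900 genes around that of HEY2.

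The shared regions lay around the stop codon or in the 3′UTR. By midpoint, 3 lay within 100 nt of the end of the stop codon, 2 in the coding sequence and 2 in the 3′UTR. Of the 7, 6 contained the stop codon, and the other was the NOTCH1 region in the 3′UTR. Among all regions in all 4 lists that could be placed on a canonical protein-coding transcript, 51.0% contained the stop codon. The 7 regions held 40 GGAC, and 30 of them were covered in all 4 lists, 3 in both Control lists only and 0 in both F. nucleatum lists only. Of these 3, 2 lay at the upstream end of a NOTCH1 region and 1 at that of the JAG2 region. The matching share over all regions was not computed. Both regions covered fewer bases in both F. nucleatum lists. Fewer bases were found there for 17.3% and more bases for 13.7% of all regions in all 4 lists. A loss of m6A at these sites cannot be read from the count. HES4 was the region with no GGAC covered in all 4 lists. The HES4 part covered in all lists did hold 2 DRACH matches, among them AGACT at 16 nt past the end of the stop codon.

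NOTCH1 held the only shared region that was split in both F. nucleatum lists. A region before and over its stop codon (chr9:139390142-139391937) was covered by 1 unbroken peak of 1647 nt in Control 1 and of 1617 nt in Control 2. In both F. nucleatum lists it was covered by 2 peaks, of 958 and 420 nt in F. nucleatum 1 and of 570 and 570 nt in F. nucleatum 2. Such a split was found for 1.30% of the 11341 regions in all 4 lists, and the reverse (2 or more peaks in each Control list and 1 in each F. nucleatum list) for 1.05%. Among 2209 such regions of 1000 nt or more the shares were 3.49% and 2.31%. The gap common to both F. nucleatum lists was 208 nt long (chr9:139391100-139391307, -784 to -577 nt from the end of the stop codon, GC content 63.5%) and held no GGAC and 1 DRACH match, the GAACC printed above. A further 60 nt at the upstream end were covered in both Control lists only and held 2 GGAC, of which the GGACC at -1387 nt from the end of the stop codon is printed above.

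In strength the NOTCH1 region overlapped between the treatments. Its lowest p-value was 2e-21 and 4e-32 for Control against 1e-27 and 1.3e-17 for F. nucleatum. As p-values depend on depth, each was also ranked within its list, where 0% is the strongest peak. Both measures also depend on the mRNA level of the gene and on peak length. Weaker and stronger refer here to rank alone, as the lists give no ratio of IP to input. The part of the mRNA level in the ranks was not tested. The ranks of the NOTCH1 region were 28.4% and 21.9% for Control against 24.8% and 32.1% for F. nucleatum, so the groups overlapped. The NOTCH1 region in the 3′UTR (chr9:139389364-139389723) was weaker, at ranks of 66.6% and 48.8% for Control against 57.9% and 54.8% for F. nucleatum.

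NOTCH2 had its main region over the stop codon (chr1:120457259-120458606), at ranks of 32.7% and 23.9% for Control against 21.0% and 28.4% for F. nucleatum, with overlap. Of 2 further NOTCH2 regions in the coding sequence, chr1:120458786-120459145 was found in Control 2 and F. nucleatum 2 (p-values of 0.00091 and 0.00016) and chr1:120466356-120466506 in Control 2 only (0.00023). The furthest upstream of these regions began at -2803 nt from the end of the stop codon, in a coding sequence of 7416 nt. All of them lie away from the 5′ exons that the partial copies of NOTCH2 share. NOTCH3 had a weak region before its stop codon (chr19:15271460-15272088) in Control 1, Control 2 and F. nucleatum 1, with lowest p-values of 0.00022, 0.0011 and 1.8e-06. It was joined from 4 peaks that touched in part by 1 base, and no peak was called in F. nucleatum 2.

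By p-value and rank, JAG2 carried the strongest m6A peak of the Notch genes in every list, and its mRNA level was high among them (mean 20.4 FPKM). Its region ran from -470 to 966 nt relative to the end of the stop codon (chr14:105608066-105609502) and held 14 GGAC. The p-values were 1e-143 and 1e-141 for Control against 4e-72 and 1e-64 for F. nucleatum. The ranks of JAG2 were 3.32% and 3.62% for Control against 9.19% and 8.80% for F. nucleatum, so both F. nucleatum ranks were the weaker ones, as for 19.0% of all regions in all 4 lists. A stretch of 120 nt at the upstream end (chr14:105609353-105609472, GC content 69.2%) was covered in both Control lists only and held the GGACA printed above. The number of bases covered was 1168 and 1437 for Control against 1078 and 1167 for F. nucleatum, where the nearest values of the groups differed by 1 base. JAG1 had a region of similar position (chr20:10619918-10620577) at ranks of 14.2% and 18.5% for Control against 14.3% and 11.4% for F. nucleatum, and the groups overlapped.

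The HES genes differed in the direction of their peaks. HES1 had its main region over the stop codon (chr3:193855686-193856222), with p-values of 4e-22 and 4e-21 for Control against 3.2e-51 and 2e-23 for F. nucleatum. The ranks of HES1 were 27.7% and 30.1% for Control against 13.8% and 25.7% for F. nucleatum, so both F. nucleatum peaks were the stronger ones, as for 19.2% of all regions in all 4 lists. The GGACT printed for HES1 lies at -28 nt from the end of the stop codon, just ahead of the codons of the WRPW motif by which HES proteins bind TLE corepressors. A region at the start of the HES1 mRNA (chr3:193853931-193854110) was called in F. nucleatum 1 only (p-value 9.1e-05).

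HES4 had its region at the very end of the mRNA (chr1:934342-934669), and its p-values were 2.5e-65 and 1.6e-37 for Control against 2e-20 and 6.9e-05 for F. nucleatum. The ranks of HES4 were 9.86% and 19.0% for Control against 30.7% and 71.2% for F. nucleatum. Both F. nucleatum peaks were thus weaker, with mean ranks of 14.5% and 51.0% in Control and F. nucleatum. The peak was also shorter, at 328 and 179 nt in Control and 149 and 120 nt in F. nucleatum lists, as fewer bases in both F. nucleatum lists were found for 17.3% of all regions in all 4 lists. The HES4 mRNA level was higher in both F. nucleatum inputs. The part covered in all lists ran from -22 nt relative to the end of the stop codon through the 3′UTR of 95 nt, whereas the GGACC of the upstream end, printed above, was covered in Control 1 only. HEY1 had a peak of 91 nt at its stop codon in F. nucleatum 2 only (p-value 0.003, rank 95.1%).

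**Figure D3:**
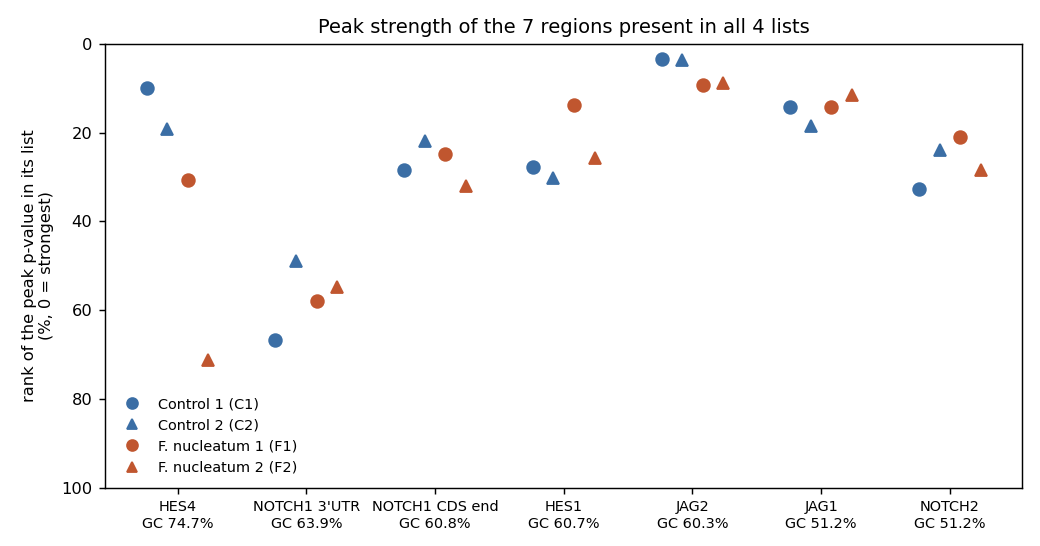
Rank of the lowest peak p-value within its list (vertical axis, %, 0 at the top is the strongest) for the 7 regions present in all 4 lists, ordered by the GC content of the region, in Control (blue) and F. nucleatum (red) lists. Both red points of HES4 lie below both blue points, at 30.7% and 71.2% against 9.86% and 19.0%, and both red points of HES1 lie above.

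In all, 2 of the 7 regions (HES4 and JAG2) were weaker and 1 (HES1) was stronger in both F. nucleatum lists, and 3 (HES4, JAG2 and NOTCH1 over the stop codon) covered fewer bases. Peak strength moved with GC content over the whole series. Of 215 regions in all 4 lists with a GC content of 70% or more, 47.4% were weaker and 4.65% stronger in both F. nucleatum lists. At 55 to 65% GC these shares were 28.1% and 13.5% of 3130 regions, and under 45% GC they were 9.47% and 25.3% of 3506 regions. The HES4 region had a GC content of 74.7%, and JAG2, HES1 and the split NOTCH1 region had 60.3%, 60.7% and 60.8%. Fewer bases in both F. nucleatum lists were likewise found for 54.9% of regions with 70% GC or more and for 28.8% of those at 55 to 65% GC. More bases in both F. nucleatum lists were found for 0.930% and 7.32% of these regions. The part of GC content in the HES4, JAG2, HES1 and NOTCH1 values was not tested.

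**Figure D4:**
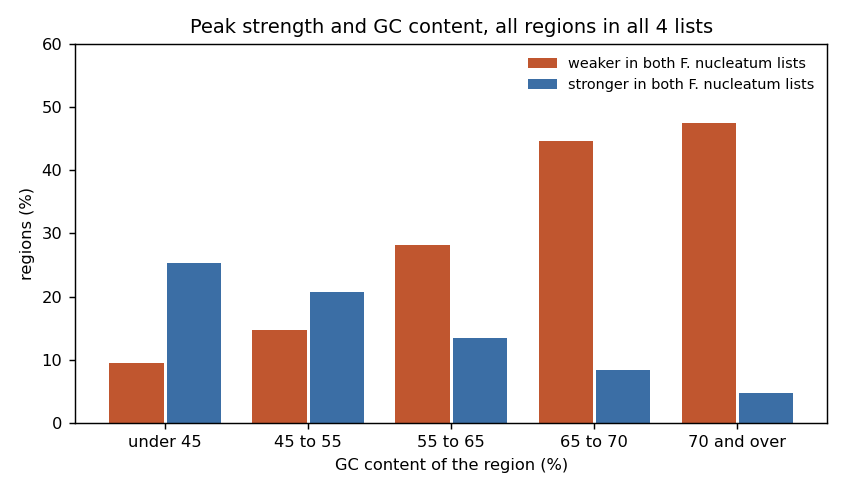
Share of all regions present in all 4 lists (vertical axis, %) whose rank was weaker (red) or stronger (blue) in both F. nucleatum lists than in both Control lists, by GC content of the region. The share of weaker regions goes from 9.47% under 45% GC to 47.4% at 70% GC and over, where the HES4 region lies.

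The rest of the pathway was read from a list of 54 other Notch genes, all found in the table. Of these 36 were tested, 13 were below 1 FPKM and 5 were listed at 0 in all libraries, and none of the 36 passed after adjustment in limma, against 0.803% of all genes. Their median log2 fold change was 0.03, beside 0.01 over all genes tested. At an unadjusted p under 0.05, 0 were higher and 4 lower in F. nucleatum libraries, against 7.04% and 6.45% of all genes. This balance depended on the filter on low values, since without it HES7, APH1B, NEURL1 and MAML3, all with means below 1 FPKM, were higher at an unadjusted limma p of 0.00426, 0.0214, 0.0409 and 0.0449 (adjusted 0.246 or more), beside the same 4 lower genes. MIB2, a ubiquitin ligase that promotes ligand endocytosis, had 24.1 and 24.1 FPKM in the Control libraries against 18.3 and 18.3 FPKM under F. nucleatum. The log2 fold change of MIB2 was -0.38 (SE 0.06, limma p 0.00105 before and 0.0973 after adjustment), the lowest p of the pathway. The others were RFNG, a glycosyltransferase that modifies Notch (-0.21), POFUT1, which adds the fucose to its EGF repeats (-0.22), and TLE3, a corepressor that HES proteins recruit (-0.22). Their limma adjusted p were 0.316, 0.334 and 0.33. After GC correction the log2 fold change of MIB2 was -0.31 (limma p 0.00413 before and 0.189 after adjustment). That of RFNG was then -0.145 (limma p 0.0506 before and 0.356 after adjustment), whereas POFUT1 and TLE3 kept an unadjusted limma p under 0.05.

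By step of the pathway, none of the 8 tested cleavage genes had an unadjusted p under 0.05. These include ADAM10, ADAM17 and γ-secretase subunits such as PSEN2 and NCSTN, and PSENEN was the highest of them (41.8 and 42.2 FPKM in Control, 37.6 and 41.4 FPKM in F. nucleatum). In the nuclear complex, SNW1 was at 55.7 and 60.4 FPKM in Control and 56.8 and 58.01 FPKM in F. nucleatum libraries. Lowest among the tested genes were DLK2, DTX4 and LFNG, each with means of 1.23 to 1.51 FPKM. The 4 tested other targets and relatives of HES and HEY (HES2, HES6, HEYL and NRARP) had log2 fold changes of 0.04 to 0.15, and their libraries overlapped between groups. ATOH1, OLFM4 and NEUROG3, the intestinal genes downstream of Notch, were listed at 0 in all libraries, as were TLE4 and HES3.

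The 54 genes held 85 m6A regions in 33 genes, of which 44 were found in all 4 lists. Of the 85, 7 regions (8.24%) were found in both lists of a treatment only, against 5.02% of all regions. The 4 found in Control included 1 each in HES6, HES2 and HEYL. That of HES6 (chr2:239148332-239148617, coding sequence, GC content 76.6%) had p-values of 0.0014 and 3.5e-05. The 3 found in F. nucleatum were 2 in the coding sequence of MAML3, a Mastermind coactivator, and 1 in the 3′UTR of FURIN, the protease that processes Notch receptors on their way to the surface. The regions named here were weak, with p-values from 3.5e-05 to 0.0085, and each of these 5 genes also had at least 1 region in all 4 lists. None of the 7 was among the regions in one treatment only when peaks were limited to a p-value of at most 1e-05, and those of HES6 and MAML3 were not among them with a reciprocal overlap of 50%. HES2 (3.31 and 3.69 FPKM in Control, 4.17 and 3.63 FPKM in F. nucleatum) and HEYL were expressed at low levels.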

How the data were processed

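Poly(A) RNA of HCT116 cells was studied in 4 input and 4 IP libraries, 2 per treatment, called biological replicates in the methods of the study. Groups and replicate numbers followed the sample labels. The submitters' processing notes name HISAT2 2.1.0, StringTie and Trim Galore 0.3.3, with hg19 as the build. The FPKM were computed by the authors with StringTie from the input libraries. Each deposited peak carried a score and no other value, taken here for a p-value that the authors obtained from a caller run on each replicate. The methods name MACS2, but the layout with exon blocks is that of exomePeak, and whether the p-value was corrected was not given in the sources used here.

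The 11088 genes whose mean FPKM reached 1 were tested on log2(FPKM + 1) in R 4.3.3 by limma 3.58.1 (eBayes with trend, no covariate), and p-values were adjusted over all of them by Benjamini-Hochberg. DESeq2, which the study named, needs counts and was not used. GC correction used a loess per library (span 0.3), for 11001 genes. Peaks were joined into regions and read against GENCODE 44 on GRCh37 where 90% or more of a region fell on the canonical transcript. The limma fit and the joining of peaks were tested on simulated data. Other steps ran in Python 3.11.15 with pandas 2.3.3 and SciPy 1.17.1.

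The 10 members, the list of 54 other genes and the markers were chosen with earlier results of these data known. The measures of rank, width, splitting and GC content of regions were chosen after the data had been seen. Of the 54, named were those with an unadjusted p under 0.05, those with a region in one treatment only, those at 0, and the 3 highest and 3 lowest tested, and a few others were named without values as examples of their step. Some items that this rule covers are not reported here. Alternatives were a pseudocount of 0.1, no filter on low values, quantile or median scaling, no trend, GC correction, a block by replicate number, a peak p-value of at most 1e-05, a reciprocal overlap of 50%, and each library left out in turn.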

Additional observations from a re-analysis of the deposited data

How the results depend on the processing

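No member and no other Notch gene passed the adjusted threshold under any alternative, and the member log2 fold changes kept their sign in all of them except JAG2, which ranged from -0.68 without Control 1 to 0.00059 without Control 2. For HES1 the unadjusted limma p was 0.0559 without a filter on low values, 0.0517 with quantile scaling and 0.0511 with median scaling. It was 0.0524 with GC correction and 0.0519 with GC correction and a replicate block. For JAG1 it stayed under 0.05 in these settings. With 1 library left out, the log2 fold change of JAG1 lay between 0.25 and 0.58 and that of HES1 between 0.19 and 0.53. Regions in one treatment only numbered 0 among the members. They numbered 3 with a reciprocal overlap of 50%, all pieces of the NOTCH1 region that was split, and 0 to 2 when 1 list was left out. Among the 54 other genes they numbered 7, which became 2 other regions, in F. nucleatum only, in HEYL and PSENEN with peaks at a p-value of at most 1e-05, stayed 7 in number but not in identity with a reciprocal overlap of 50%, and became 12 to 17 when 1 list was left out, where fewer lists had to meet the criterion. The genes called over the whole table were 74 higher and 15 lower, against 35 and 5 without a filter on low values, 185 and 99 without Control 2, 136 and 36 without Control 1, 16 and 8 without F. nucleatum 1, and 13 and 3 without F. nucleatum 2. Same-numbered inputs did not deviate together (correlation 0.0243 over 11088 genes), so they were not treated as paired, and with a replicate block 0 members and 0 other Notch genes were called, beside 75 higher and 15 lower genes in all. With 2 libraries per group and no counts, small changes and peaks near the calling limit could not be resolved.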
